A study of Homo sapiens with 4 samples.

Results

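Interleukins are secreted proteins through which leukocytes signal to each other, and their receptors sit on the surface of the responding cells. Most interleukin receptors signal through JAK kinases and STAT transcription factors, while the receptors of the IL-1 and IL-17 families use adaptors such as MYD88 and TRAF3IP2. Many of the genes lie in clusters, such as the IL-1 cluster and the cluster with IL4, IL5 and IL13, and B cells both make and respond to several interleukins, among them IL6, IL10 and IL4. Cohesin, of which SMC1 is a subunit, extrudes chromatin into loops, and CTCF bound to its motif can halt it.

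The interleukin and interleukin receptor genes were taken as all protein-coding genes on chromosomes 1 to 22 whose GENCODE release 44 name is IL followed directly by a number. There were 78 of 19111 coding genes, on 19 chromosomes. Of these, 42 encode ligands, receptor antagonists included, 34 encode receptors or receptor-like proteins, and 2, IL4I1 and IL18BP, are neither: the former is a secreted amino acid oxidase and the latter a soluble binder of IL-18. Chromosome 2 held 15 of them, chromosome 5 held 10, and chromosomes 1 and 3 held 8 each.

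The data are SMC1 HiChIP after fixation with formaldehyde and EGS, an amine crosslinker with a longer reach (FA-EGS), and CTCF HiChIP after formaldehyde alone (FA). HiChIP joins a chromatin contact assay with immunoprecipitation of the named protein. Both were done in HG00731, a lymphoblastoid cell line, that is, B cells immortalised with Epstein-Barr virus, so all values come from 1 line, and the difference in fixation cannot be told apart from the difference in target. Each target had 2 biological replicates, whose reads the authors pooled into 1 peak list and 1 loop list, so no value below has a spread between replicates and no test between the targets was made.

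Before the values of the interleukin genes, the lists themselves were examined. The peak lists held 97364 SMC1 and 63555 CTCF peaks. There were 28012 loops labelled SMC1 and 80487 loops labelled CTCF, with at least 12 read pairs in each loop. All 28012 loops labelled SMC1 had a CTCF peak at an anchor and 11 lacked an SMC1 peak, while all 80487 loops labelled CTCF had an SMC1 peak at an anchor and 3745 lacked a CTCF peak. The presence of peaks at anchors therefore goes against both labels, and the study lists these loop totals under the opposite targets. The labels may have been exchanged, so each loop value given under a label may belong to the other target. The lists are called by their labels throughout, and no target is drawn from them. Of 7 B cell marker genes, among them MS4A1 and PAX5, 6 had an SMC1 peak within 1 kb of the start, against 1 of 5 T cell, 1 of 4 myeloid, 1 of 3 liver and 0 of 2 erythroid marker genes. Peaks at a start are no measure of expression.

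Nearly all interleukin genes had cohesin and CTCF in their neighbourhood, but fewer had a peak at the start itself. An SMC1 peak had its summit within 20 kb of the start of 76 of 78 genes (97.4%, 95% Wilson interval 91.1 to 99.3), where the share over all coding genes was 84.2%. A CTCF peak lay within 20 kb of 71 genes (91.0%, 82.6 to 95.6), against 79.3% of all coding genes. Within 1 kb of the start the shares were near those of all coding genes, which lay inside both intervals. An SMC1 peak lay there in 33 genes (42.3%, 32.0 to 53.4), against 51.3% of all coding genes, and a CTCF peak in 26 (33.3%, 23.9 to 44.4), against 34.7%. Neighbouring members share peaks, since 21 of the SMC1 and 14 of the CTCF peaks fell within 20 kb of more than 1 start, so genes are not independent and the intervals, which cover counting error only, are too narrow.

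**Figure D1:**
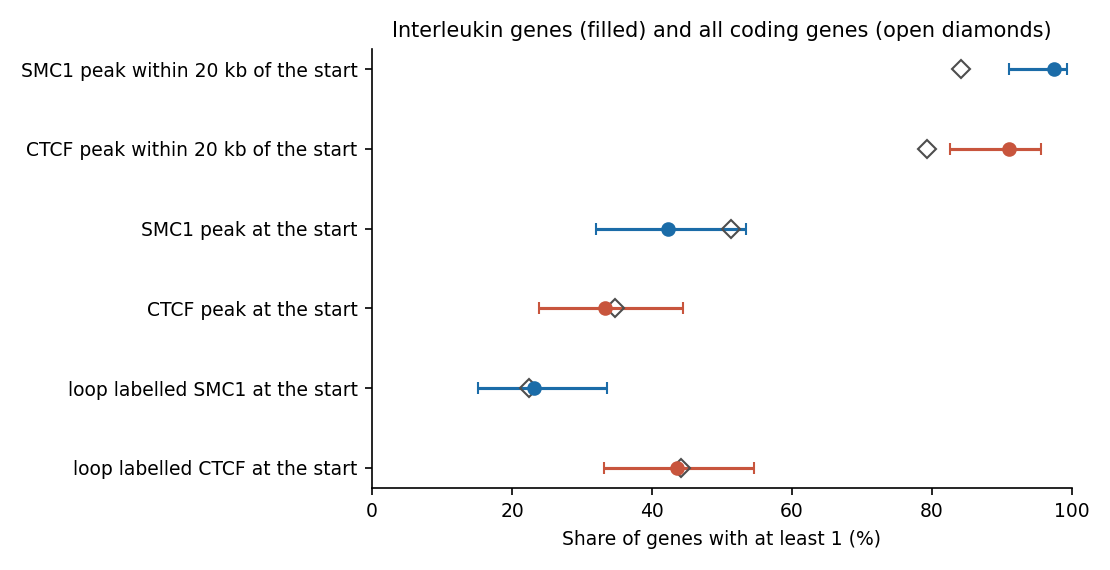
Share of the 78 interleukin genes (filled circles, with 95% Wilson intervals) and of all 19111 coding genes (open diamonds) that had a peak within 20 kb of the start, a peak within 1 kb of it, or a loop anchor within 1 kb of it. The diamonds lie below the interleukin intervals for peaks within 20 kb and inside them for the other 4 measures.

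Loops were found at interleukin genes about as often as at other genes. A loop anchor lay within 1 kb of the start of 18 genes in the list labelled SMC1 (23.1%, 15.1 to 33.6), with 22.4% over all coding genes, and of 34 genes in the list labelled CTCF (43.6%, 33.1 to 54.6), with 44.2%. With either list, 35 of 78 genes had a loop (44.9%), against 46.2% of all coding genes. Genes with an SMC1 peak at the start had a loop more often, 23 of 33 (69.7%, 52.7 to 82.6), than those without, 12 of 45 (26.7%, 16.0 to 41.0). MAPS calls loops only where an anchor holds a peak, so part of this difference can be built into the calls. The same shares over all coding genes were 64% and 27.4%.

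Among the ligands, the IL-1 family stood at one end. None of its 11 genes had an SMC1 peak with its summit within 1 kb of the start. The upper Wilson limit was 25.9%, against 51.3% of all coding genes. A CTCF peak lay there in 1 (9.09%, 1.62 to 37.7), against 34.7%, and 1, IL1A, had loops. IL1A encodes IL-1 alpha, an alarm signal released by damaged cells. It had an SMC1 peak with its summit 1760 bp downstream of the start and its edge within 1 kb of it. This peak had a −log10 q-value of 49.0 and a fold enrichment of 4.98. The single CTCF peak at a start belonged to IL1RN, the receptor antagonist, with a −log10 q-value of 4.3 and a fold enrichment over the local background of 3.07. The highest SMC1 peak within 20 kb of IL1RN lay 19055 bp upstream, nearer to IL1F10, and had a −log10 q-value of 67.1 and a fold enrichment of 5.94. The highest CTCF peak near this family, singled out after its values were seen, lay 14298 bp upstream of IL36G and had a −log10 q-value of 256 and a fold enrichment of 13.5. At IL36A, another ligand of this family, no peak of either target lay within 20 kb.

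The next 9 ligands were IL13 and those that signal through the common gamma or beta chain, such as IL3, IL4, IL5, IL7 and IL15. They were nearer to all coding genes. An SMC1 peak lay at the start of 5 (55.6%, 26.7 to 81.1), against 51.3% of all coding genes. A CTCF peak lay at that of 4 (44.4%, 18.9 to 73.3), against 34.7%. The shares of all coding genes lay inside these wide intervals, and also inside those of every role group below. At IL5, the growth factor of eosinophils, the SMC1 peak had its summit 232 bp upstream of the start, in an exon of the neighbouring RAD50. It had a −log10 q-value of 59.7, and no CTCF peak lay within 1 kb. This start is the 5′ end of a GENCODE record that spans chr5:132541445-132556838, so it need not be the promoter in use. At IL4, the cytokine that drives class switching in B cells, the peaks lay apart, SMC1 802 bp downstream of the start and CTCF 622 bp upstream. The SMC1 peak had a −log10 q-value of 79.3 and a fold enrichment of 5.71, and the CTCF peak had 5.51 and 3.29. IL13, which shares a receptor chain with IL4, had peaks of both targets at the start. The −log10 q-value was 74.2 for SMC1 and 68.3 for CTCF, and the fold enrichment 5.19 and 9.15. These values come from separate libraries, and within its own list the SMC1 peak was above 88.9% of peaks and the CTCF peak above 75.3%.

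The starts of IL13 and IL4 are 17723 bp apart, and the highest SMC1 peak near either gene lay between them. Its summit, at chr5:132664101, was 7838 bp downstream of the IL13 start and 9885 bp upstream of that of IL4. It had a −log10 q-value of 160 and a fold enrichment of 7.29, and it did not overlap a CTCF peak. A smaller SMC1 peak next to it, 6726 bp from the IL13 start, also lay apart from CTCF, with a −log10 q-value of 67.8. The bin that holds both, from 132660001 to 132665000, was joined to the IL4 start by 116 read pairs where 56.4 were expected, in the list labelled CTCF. These peaks and this loop were singled out after their values were seen.

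In the IL-10 family, 3 of 6 ligands had an SMC1 peak at the start and 2 a CTCF peak. IL10, which dampens inflammation and is made by activated B cells, and IL19 have starts 3777 bp apart, because the GENCODE record of IL19 begins inside IL10, so their windows and loop bins overlap. The SMC1 peak 5 bp upstream of the IL19 start, in an intron of IL10, had a −log10 q-value of 64.2 and a fold enrichment of 3.54. Within 1 kb of the IL10 start the SMC1 peak had 9.54 and 1.94, and no CTCF peak lay there. The family's highest SMC1 peak within 20 kb belonged to IL24, 15222 bp downstream of its start in an intron of FCMR, with a −log10 q-value of 125.

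The IL-6 and IL-12 families had both targets at the start in 4 of 7 genes. IL6, which drives the growth of plasma cells, had an SMC1 peak 139 bp downstream of its start with a −log10 q-value of 99.1 and a fold enrichment of 4.75. Its CTCF peak 198 bp upstream had 76.4 and 6.11. IL12A, a subunit of both IL-12 and IL-35, had an SMC1 peak with a −log10 q-value of 50.4 and a CTCF peak with 84.5, above 82.2% and 79.6% of the peaks of their lists. IL27, with no peak of either target at the start, had peaks of both in its own intron, at 3658 bp for SMC1 and 3631 bp for CTCF, with −log10 q-values of 144 and 282.

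Among the 6 IL-17 family ligands, 2 had an SMC1 peak at the start and 1, IL17D, a CTCF peak. IL17A, the defining cytokine of Th17 cells, had no peak of either target within 20 kb. IL17F, its neighbour 59.3 kb away, had the highest SMC1 peak of the group, 18013 bp upstream of its start, with a −log10 q-value of 97.2. The CTCF peak there had 122, below the 165 of a CTCF peak 10439 bp downstream of the IL17D start. Of the 3 remaining ligands, IL16, IL32 and IL34, IL32 alone had a peak at the start, of SMC1, with a −log10 q-value of 20.7, but each of the 3 had loops in both lists.

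The receptors held the highest peaks at starts. Of 34 receptor genes, 16 had an SMC1 peak at the start (47.1%, 31.5 to 63.3) and 13 a CTCF peak (38.2%, 23.9 to 55.0), and of 42 ligands 15 (35.7%, 23 to 50.8) and 12 (28.6%, 17.2 to 43.6). The intervals of both groups overlap. For SMC1 the share of all coding genes, 51.3%, lay just above the ligand interval and inside that of the receptors. IL17RD, an IL-17 receptor family member that also restrains FGF signalling, came first for both targets by q-value. Its SMC1 peak had a −log10 q-value of 170 and a fold enrichment of 8.52, and its CTCF peak, 15 bp upstream of the start, had 336 and 14.9. These values were above those of 97.6% of all SMC1 peaks and 99.1% of all CTCF peaks. IL1RAP, the co-receptor shared by IL-1, IL-33 and IL-36, was next for CTCF and came after IL15RA and IL6ST for SMC1, with −log10 q-values of 103 for SMC1 and 215 for CTCF and fold enrichments of 9.73 and 16.4, both above those of IL17RD. No other peak of either target lay within 20 kb of IL1RAP.

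Class I cytokine receptors had an SMC1 peak at the start in 9 of 15 genes and a CTCF peak in 7. IL15RA, which presents IL-15 to neighbouring cells, had −log10 q-values of 121 for SMC1 and 148 for CTCF. IL6R, the chain that binds IL-6, had 90.6 and 106. IL6ST, the signalling chain shared by IL-6, IL-11 and IL-27, had 113 for SMC1 and 54.5 for CTCF. Within their lists, the SMC1 peak ranked above the CTCF peak at all 3 genes, with percentiles of 94.9 and 90.2 at IL15RA, 91.6 and 84.0 at IL6R and 94.2 and 70.7 at IL6ST. IL2RA, the alpha chain of the IL-2 receptor, had only a low SMC1 peak at the start, with a −log10 q-value of 6.99 and a fold enrichment of 2.24, but the highest peak of the class within 20 kb, at 181 and 6.11, 11416 bp downstream in its own intron. High peaks away from the start, singled out after their values were seen, also lay near IL12RB1, IL23R and IL11RA, with −log10 q-values of 174, 163 and 145 for SMC1 and of 267, 163 and 262 for CTCF. IL7R, which B cells lose as they mature, had 1 SMC1 peak within 20 kb, with a −log10 q-value of 6.18, and no CTCF peak.

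In the other receptor groups an SMC1 peak lay at the start of 2 of 7 IL-1 receptor genes, 3 of 6 class II receptors and 2 of 6 IL-17 receptors. For CTCF the numbers were 2, 2 and 2. The highest class II peak within 20 kb belonged to IL22RA1, a receptor chain of epithelial cells, 7247 bp upstream of the start, with a −log10 q-value of 136 for SMC1. IL17REL had the highest SMC1 peak near any interleukin gene, with a −log10 q-value of 430 and a fold enrichment of 12.2, in an exon of TTLL8 17731 bp upstream. The CTCF peak there had 270 and 14.2. Of the 2 genes that are neither, IL4I1 had an SMC1 peak with a −log10 q-value of 60.3 at the start and one with 178 at 8095 bp upstream.

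**Figure D2:**
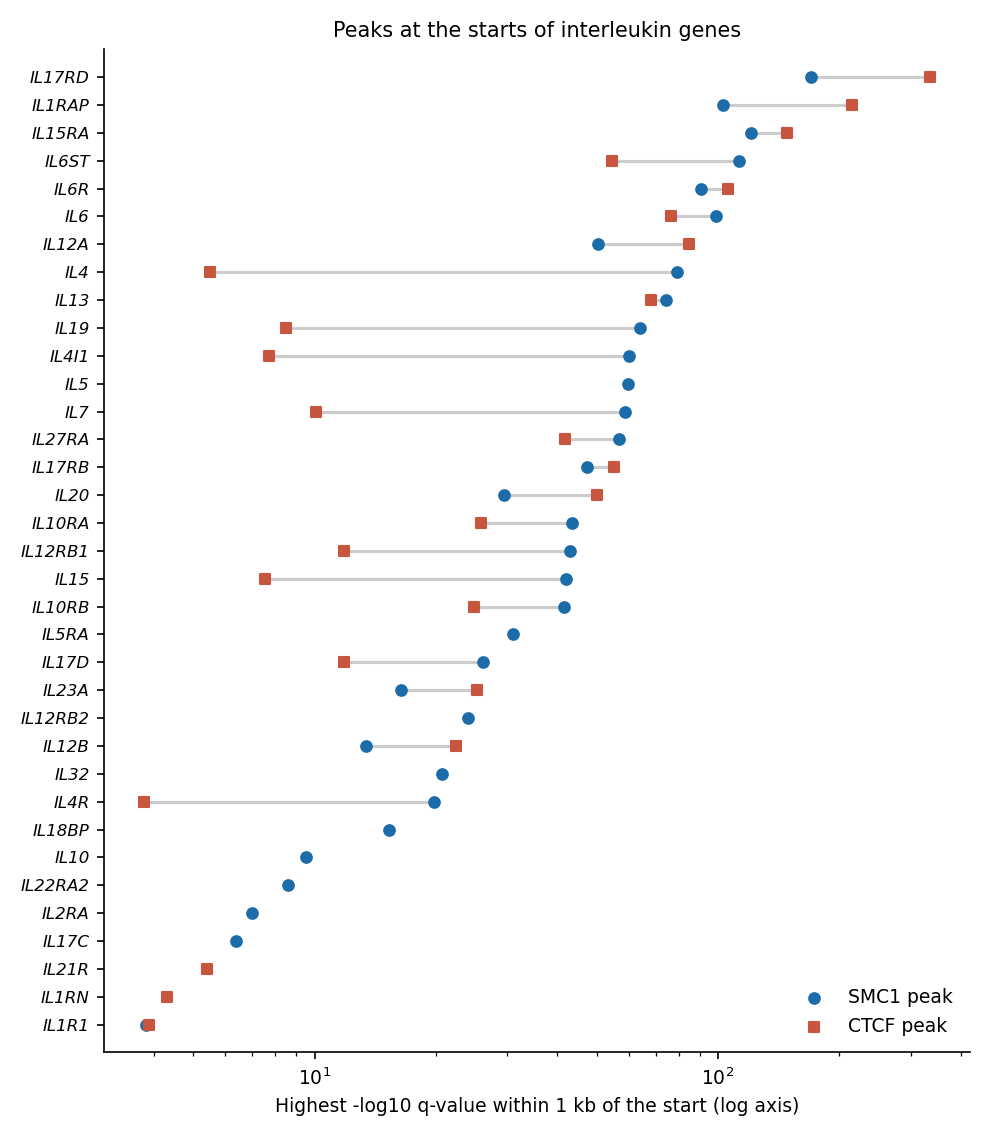
Highest −log10 q-value (log axis) of an SMC1 peak (circles) and of a CTCF peak (squares) with its summit within 1 kb of the start, for the 35 interleukin genes with either, with grey lines joining the targets of a gene. IL17RD has the highest value for both targets, and 9 genes have an SMC1 peak alone and 2 a CTCF peak alone.

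At the start, both targets were found together more often than apart, counting a peak of each within 1 kb, not always at the same site. Both lay at 24 starts (30.8%, against 31.9% of all coding genes). SMC1 alone lay at 9 (11.5%, 6.19 to 20.5) and CTCF alone at 2, IL1RN and IL21R (2.56%). Of all 19111 coding genes, 9800 had an SMC1 peak at the start, 6636 a CTCF peak and 6088 both. SMC1 alone was therefore not more frequent at interleukin starts. The starts with SMC1 alone were those of IL12RB2, IL10, IL5RA, IL5, IL22RA2, IL2RA, IL18BP, IL32 and IL17C. The highest of these 9 peaks, at the IL5 start, lies in an exon of RAD50 and cannot be given to IL5 alone. The next was that of IL5RA, the receptor chain specific to IL-5, with a −log10 q-value of 31.0 and a fold enrichment of 5.4.

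Around the genes, 257 distinct SMC1 and 166 distinct CTCF peaks had a summit within 20 kb of a start, with a median of 3 SMC1 and 2 CTCF peaks per gene. The summits farthest out were 19898 bp from IL21 for SMC1, with a −log10 q-value of 3.65, and 19990 bp from IL1RL2 for CTCF, with 9.87. The nearest left out were 20197 bp from IL27 (58.0) and 20332 bp from IL33 (4.51). Their median fold enrichment was 3.24 for SMC1 (95% rank interval 3.07 to 3.46) and 4.59 for CTCF (3.85 to 5.24), against 3.44 and 4.89 for the peaks near any coding start. Of the SMC1 summits, 46 were in exons, 119 in introns and 92 between coding genes, and 107 were inside an interleukin gene. Of the CTCF summits, 24 were in exons, 79 in introns and 63 between coding genes, and 65 were inside an interleukin gene.

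SMC1 peaks that overlapped a CTCF peak were the higher ones. Of the 257 SMC1 peaks, 119 did so (46.3%, 40.3 to 52.4), against 51.7% near any coding start. Their median fold enrichment was 4.33 (4.0 to 4.84), and that of the 138 without a CTCF peak was 2.77 (2.62 to 2.86). Of the 166 CTCF peaks, 129 overlapped an SMC1 peak (77.7%, 70.8 to 83.4), with a median fold enrichment of 5.53, and the 37 others had 3.05. The same order held near any coding start, with 4.56 and 2.77 for SMC1 and 5.94 and 3.21 for CTCF.

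**Figure D3:**
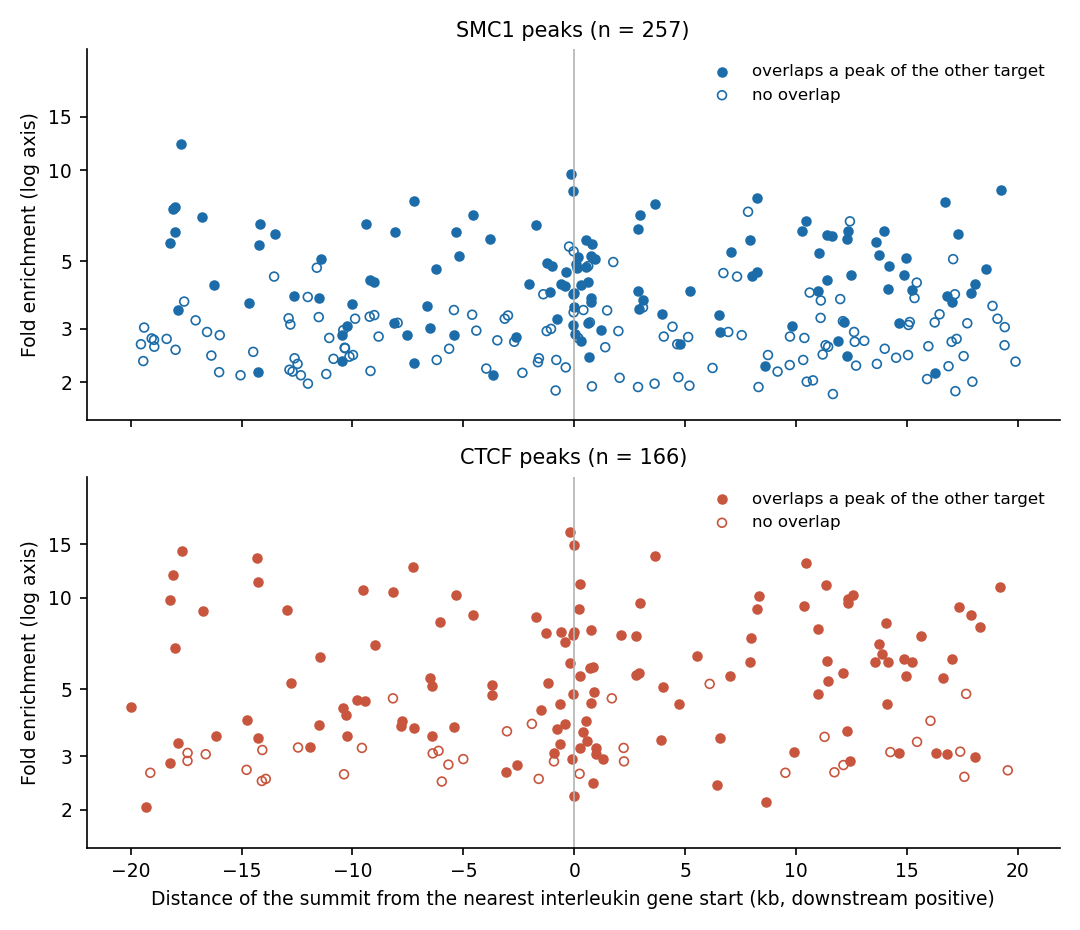
Fold enrichment (log axis) of the 257 SMC1 and 166 CTCF peaks against the distance of the summit from the nearest interleukin gene start, with filled points for peaks that overlap a peak of the other target. Peaks that overlap the other target are the higher ones, with medians of 4.33 and 2.77 for SMC1 and of 5.53 and 3.05 for CTCF.

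The CTCF core motif, a pattern of 12 letters, was searched on both strands with at most 1 mismatch. It was found within 100 bp of the summit of 26 of 166 CTCF peaks (15.7%, 10.9 to 22), against 14.7% of CTCF peaks near any coding start. Among SMC1 peaks it was found at 21 of 119 that overlapped a CTCF peak (17.6%) and at 4 of 138 that did not (2.9%). In RefSeq promoters of GRCh38.p14, from 250 bases before the start to 50 bases from it on, it was found in 5 of 102 windows of 63 interleukin genes (4.9%) and in 1673 of 33725 windows on chromosomes 1 to 22 (4.96%). A match describes the letters and not a bound site.

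The sites below are shown because they lie in loop anchors at IL6, IL6ST, IL6R and IL3 or under the highest CTCF peaks within 20 kb of IL12A and IL2RB, where no loop anchor at the start holds them. Each is 30 bases of the hg38 reference, written 5′ to 3′ on the strand that carries the motif, with the letters of the core motif in capitals. Those of IL6, the more distant of the IL12A sites and that of IL2RB had no mismatch, and the others had 1.
IL6, exon, chr7:22728621-22728650, reverse strand: aaacaaacaCCACTAGAGGGCcttttcatt
IL6 loop, distant anchor in a STEAP1B intron, chr7:22560006-22560035, forward strand: acctctttaCCAGCAGAGGGCaagtccacg
IL6ST, just upstream of the start, chr5:55995053-55995082, reverse strand: gcctaggtcCCGGTAGGGGGCggggcgcag
IL6R, intron, chr1:154405886-154405915, reverse strand: ggagcaagcGCAGCAGGGGGCgcaagagcc
IL3, downstream of the gene, chr5:132063598-132063627, reverse strand: ctggaaggaCCACTAGGGGGAgacatgcca
IL3, farther downstream, chr5:132064857-132064886, forward strand: ctggattgaCCACTAGGGGGAggtgtgtgc
IL12A, downstream, chr3:160003709-160003738, reverse strand: tcatgggggCCACTGGGTGGCgccagcaat
IL12A, farther downstream, chr3:160006715-160006744, reverse strand: atcaggaaaCCACTAGATGGCagggccatc
IL2RB, intron, chr22:37166687-37166716, forward strand: cagaagttgCCACCAGAGGGCagtgcgcgc

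The CTCF peaks over these sites differed in height. That of IL3, 2957 bp downstream of the start, had a −log10 q-value of 292, the highest CTCF peak of its group of ligands, and the SMC1 peak with its summit at the same base had 203. The peaks 14889 and 17892 bp from IL12A had 120 and 214. That of IL2RB, the beta chain of the IL-2 and IL-15 receptors, had 207, and that in the IL6 exon had 66.6. The sites at IL6ST and IL6R lay within 1 kb of the start, under peaks with 54.5 and 106. The other 5 of the 6 highest CTCF peaks at interleukin starts, those of IL17RD, IL1RAP, IL15RA, IL12A and IL6, had no match within 100 bp of the summit. A match was found in 14.7% of CTCF peaks near any coding start. Its absence therefore does not show that a peak lacks a CTCF motif.

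At interleukin genes 44 loops were labelled SMC1, with 1128 read pairs, and 141 were labelled CTCF, with 5996. Their median span was 105 kb (70 to 130) and 90 kb (80 to 105), and their median ratio of observed to expected read pairs was 3.18 (3.04 to 3.49) and 3.16 (2.90 to 3.38), against 3.69 and 3.64 for loops at any coding start. No loop of either list joined the starts of 2 interleukin genes, 0 of 44 and 0 of 141, with upper Wilson limits of 8.03% and 2.65%. At the other anchor a coding start lay in 8 of 44 loops (18.2%, with 14.2% over loops at any coding start) and in 15 of 141 (10.6%, with 13.0%). Within a tolerance of 15 kb, 35 of the 44 loops had a partner in the other list (79.5%, 65.5 to 88.8), and 56 of the 141 did (39.7%, 32.0 to 48.0). Both shares were below those of loops at any coding start, 89.8% and 55.3%. Loops of 1 gene are not independent, and 23 of the 141, all without a partner, were at IL6ST alone, so the lower share leans on this gene.

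**Figure D4:**
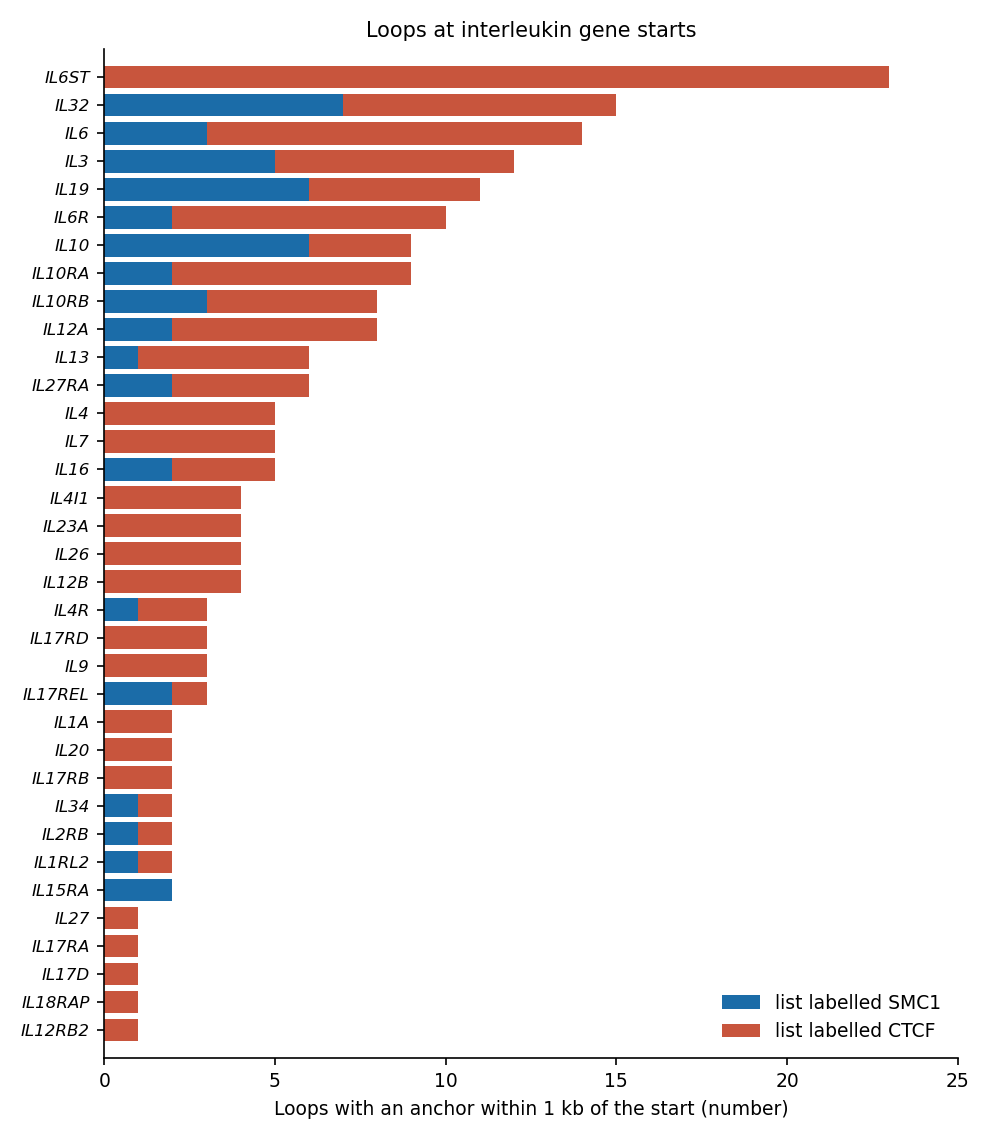
Number of loops with an anchor within 1 kb of the start, for the 35 interleukin genes with at least 1, labelled SMC1 (blue) and CTCF (red) stacked, and loops shared by IL10 and IL19 counted at both. IL6ST leads with 23 loops, all in the list labelled CTCF, and IL15RA is the single gene with loops in the list labelled SMC1 alone.

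IL6ST had the most loops, 23 in the list labelled CTCF and none in the list labelled SMC1. They ran from the 2 neighbouring bins at its start to 16 distant bins, all upstream of this reverse-strand gene, and spanned 55 to 210 kb. Their read pairs ranged from 15 to 61 and the ratio of observed to expected from 2.09 to 4.24. The loop with the most, 61 where 16.5 were expected, reached 150 kb to chr5:56140001-56145000, and no coding start lay at its other anchor. None of the 23 had a partner in the other list within 15 kb.

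The highest read-pair count of any interleukin loop was at IL6. This loop joined the IL6 start to a bin in STEAP1B, 165 kb away, chr7:22560001-22565000 and chr7:22725001-22730000. The list labelled CTCF gave it 247 read pairs where 22.6 were expected, a ratio of 10.9, and the list labelled SMC1 54 where 9.56 were expected, a ratio of 5.65. The sites shown above lie at its anchors and point towards each other, the forward one under a CTCF peak with a −log10 q-value of 248 in the distant bin. The start of STEAP1B, a gene on the reverse strand, lies in the same bin as that of IL6, so the loop cannot be given to either gene alone. In all, IL6 had 3 loops labelled SMC1 and 11 labelled CTCF, and 3 pairs of bins were the same in both lists.

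IL3, a growth factor of early blood cells, had 5 loops labelled SMC1 and 7 labelled CTCF, to both sides and over up to 640 kb. The loop labelled CTCF with the most read pairs spanned 250 kb, to an intron of MEIKIN, with 41 read pairs where 5.27 were expected, a ratio of 7.79. The one labelled SMC1 with the most read pairs spanned 115 kb, with 24 where 9.52 were expected, although its ratio of 2.52 was the lowest of the 5, and the list labelled CTCF gave the same bins 34. The bin at IL3 holds both of its sites above, of opposite strands, and the MEIKIN bin held a forward one.

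IL32, an inflammatory cytokine, had 7 loops labelled SMC1 and 8 labelled CTCF. All ran downstream of its start and spanned 15 to 85 kb, and 5 pairs of bins were the same in both lists. Their bin at IL32, chr16:3060001-3065000, ends just short of its start at 3065297, so none has the start inside the anchor. The SMC1 peak at the start also lies outside this bin, whose highest SMC1 peak has its summit in an exon of MMP25. By read pairs, the leading loop labelled SMC1 joined this bin to the start of ZNF213, a zinc finger gene 65 kb away. It had 56 read pairs where 17.2 were expected, and the other list gave these bins 76. The leading loop labelled CTCF spanned 15 kb, with 82 read pairs where 35.9 were expected, a ratio of 2.29, while the ratio at the ZNF213 start reached 4.3.

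The bin with the starts of IL10 and IL19 had the highest counts after IL6. In the list labelled CTCF, 241 read pairs where 115 were expected joined it to a bin 10 kb away, and 217 where 68.0 were expected to a bin 35 kb away. The list labelled SMC1 gave the same bins 23 and 21 read pairs. Of the loops labelled SMC1 there, the one with the highest count spanned 25 kb, to an intron of IL19 with a forward motif under a CTCF peak, with 38 read pairs where 12.1 were expected. Loops labelled SMC1 from this bin also reached 140 and 160 kb, while those labelled CTCF stayed within 35 kb.

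The lists overlapped at IL6R and not at IL10RA. At IL6R, both loops labelled SMC1 had the same bins in the other list, 60 and 70 kb downstream, with 21 and 24 read pairs against 55 and 39. The highest read-pair count of its 8 loops labelled CTCF lay 55 kb upstream, with 64 where 20.3 were expected. At IL10RA, the chain that binds IL-10, the 2 loops labelled SMC1 ran 165 and 170 kb upstream, the farther one to the start of DSCAML1, with 19 and 18 read pairs where 4.59 were expected in both cases. The 7 labelled CTCF spanned 20 to 65 kb, the highest count being 96 read pairs where 32.2 were expected. None of the 9 had a partner in the other list.

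**Figure D5:**
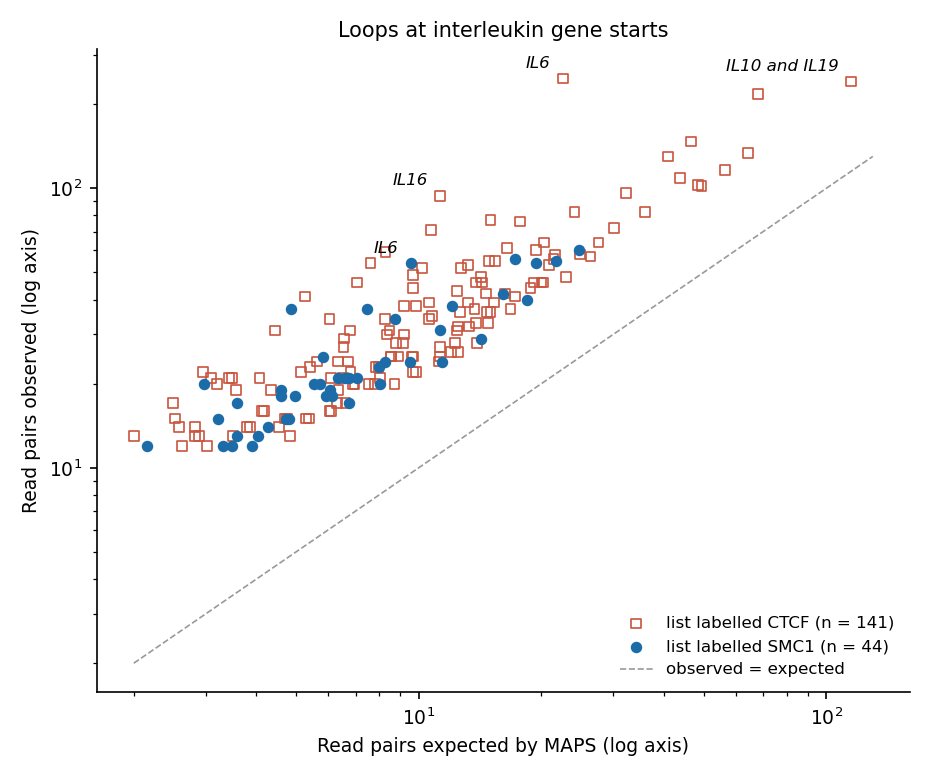
Observed against expected read pairs (both axes log) for the 44 loops labelled SMC1 (filled circles) and the 141 labelled CTCF (open squares) at interleukin gene starts, with a dashed line where both are equal. The IL6 loop lies farthest above the line in the list labelled CTCF, at 247 against 22.6, and the loops at IL10 and IL19 have counts of up to 241 at a ratio of 2.1.

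Loops at 4 other interleukin genes were picked out after their values were seen. IL10RB, the second chain of the IL-10 receptor, was joined to the start of IFNAR2, an interferon receptor chain, over 65 kb, with 24 read pairs where 8.29 were expected (labelled SMC1) and 130 where 40.9 were expected (labelled CTCF). Next to IL23A, a subunit of IL-23, a bin was joined to STAT2 over 20 kb in the list labelled CTCF alone, with 41 read pairs where 17.2 were expected. This bin begins at chr12:56335001 and leaves out the IL23A start at 56334174. It lies within 1 kb of that start and of the start of PAN2. IL15RA was joined to RBM17, a splicing factor gene, over 110 kb in the list labelled SMC1 alone, with 40 read pairs where 18.4 were expected. IL16, a ligand of CD4, had no peak at its start but a loop over 110 kb in both lists, with 34 read pairs where 8.75 were expected and 94 where 11.3 were expected.

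IL17RD, the gene with the highest peaks at its start, had 3 loops, all labelled CTCF, among them the longest at any interleukin gene. It spanned 740 kb with 13 read pairs where 2.0 were expected. IL1RAP, whose peaks at the start had the higher fold enrichments, had no loop in either list. IL7, the growth factor of early lymphocytes, had 5 loops labelled CTCF and none labelled SMC1, and 4 of them ran 75 to 85 kb to a pair of neighbouring bins downstream, with 44 to 77 read pairs each. IL27RA, a receptor chain for IL-27, had its highest count in both lists in a loop over 150 kb, with 37 and 54 read pairs where 7.46 and 7.62 were expected. At IL4I1 the 4 loops labelled CTCF held 305 read pairs, 147 of them in a loop over 30 kb, but their bin also holds the starts of NUP62 and ATF5. These loops, too, were picked out after their values were seen.

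Other genes of interleukin signalling, 23 kinases, STATs, SOCS proteins, adaptors and shared chains such as JAK1, STAT3, SOCS3 and MYD88, had an SMC1 peak at the start more often than the interleukin genes, in 19 of 23 (82.6%, 62.9 to 93.0), against 51.3% of all coding genes. A CTCF peak lay at the start of 10 (43.5%, 25.6 to 63.2), against 34.7%, and this interval overlaps that of the interleukin genes. Loops labelled SMC1 lay at 10 of the 23 (43.5%) and loops labelled CTCF at 19 (82.6%), against 22.4% and 44.2% of all coding genes. Of 61 chemokine and chemokine receptor genes, 14 had an SMC1 peak at the start (23%, 14.2 to 34.9) and 9 a CTCF peak, and of 33 TNF superfamily genes 21 (63.6%, 46.6 to 77.8) and 13. The interleukin share of 42.3% lay between these families, and its interval overlaps both.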

How the data were processed

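SMC1 FA-EGS HiChIP and CTCF FA-HiChIP of HG00731 were analysed from pooled lists of 2 biological replicates each. For alignment to hg38 the authors used BWA-MEM 0.7.17, with a MapQ filter of over 30 and removal of duplicates, and MACS3 3.0.1 gave the peaks, with 0.01 as the q-value limit. The deposited fold enrichment is a ratio of pileup to local background, and the deposited significance is the −log10 of the MACS3 q-value. The deposited loop lists of MAPS give the raw count of read pairs per pair of 5 kb bins, and beside it the expected number. Their totals are 788356 read pairs labelled SMC1 and 2666327 labelled CTCF, and depth per replicate is not given in them. MAPS q-values were not used. A cell type marker gene is not reported here and was left out of the marker counts.

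Starts are the 5′ ends of GENCODE release 44 genes. Overlaps needed 1 bp. Shares carry Wilson and medians rank intervals at 95%, for counting error only. The genes named have the highest peaks at the start or in their role group, the most loops, or no peak. The members and lists were chosen with earlier results of these data known. Counting was tested on simulated data. Python 3.11.15, NumPy 2.4.6, pandas 2.3.3, SciPy 1.17.1 and Matplotlib 3.10.9 were used. Alternatives were stricter q-values, other windows, all coding transcript starts, equal peak numbers, other overlap and motif rules, loops with more read pairs and exchanged loop lists.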

Additional observations from a re-analysis of the deposited data

How the results depend on the processing

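Of 68 alternatives for 16 values, 49 moved a count by no more than 1.5 times or kept a share or median within its interval, 19 moved it further. When only peaks with −log10 q-values from 10 upwards were kept, 164 SMC1 and 101 CTCF peaks were left near the genes, with median fold enrichments of 4.02 and 6.27, and the motif share of CTCF peaks rose to 23.8%. With windows of 10 kb, 62 genes had an SMC1 peak and 60 a CTCF peak, and with 50 kb 78 and 77. Of these windows, the share of all coding genes was taken at 20 kb alone, so that contrast rests on it. Windows of 10 kb gave 127 SMC1 and 91 CTCF peaks, and an SMC1 share overlapping CTCF of 53.5%, while windows of 50 kb gave 543 and 346 peaks. That share was 28.0% when 50% of the SMC1 peak had to be covered. The motif share was 3.61% with no mismatch and 24.7% in the whole peak. With the loop lists exchanged, the genes with a loop became 34 for SMC1 and 18 for CTCF, the loops 141 and 44, and the share with a coding start at the other anchor 18.2% for CTCF. Of the loops labelled SMC1, 22 reached the median read-pair count of their list. The cause of these moves was not tested beyond what each setting removes or adds. No paired analysis was possible because each list pools both replicates, and no replicate could be left out for the same reason. The depth of each replicate limits the low peaks in a way the lists do not show.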

Other observations

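Where both loop lists held the same pair of bins at an interleukin gene, the list labelled CTCF usually gave it more read pairs. Of 28 such pairs of bins, 2 had fewer, at IL32, with 46 against 55, and at IL17REL, with 21 against 25. The median ratio of the 2 counts was 1.88 (95% rank interval 1.4 to 2.62), against 1.52 for 6679 pairs of bins at any coding start. The ratio reached 10.5 and 10.3 at the bin shared by IL10 and IL19, 6.06 at the bin next to it, 5.42 at IL10RB and 4.57 at IL6, and lay at or below 2.83 in all other genes but IL12A, with 4.08. Since the labels may have been exchanged, the direction by target may be the reverse. These ratios have no replicate check, and the part of sequencing depth and fixation in them was not tested.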
